A study of Drosophila melanogaster with 4 samples.

Results

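The peaks described here are those of the Abd-B-GFP fusion protein at 2 loci of secreted signals on chromosome arm 2L of Drosophila melanogaster: the gene dpp with the regulatory region 3′ of it, and the cluster of the Wnt genes Wnt4, wg, Wnt6 and Wnt10. Members were all peaks whose midpoint lay in a window of 70 kb at dpp or of 140 kb at the Wnt cluster, in coordinates of FlyBase release 5. Width and score played no part in this rule, but the windows were chosen with earlier results of these data known. The dpp window runs from 7971 bp before the start of its first peak, at 2427971, to 1281 bp after the end of its last, at 2488719. The Wnt cluster window runs from 10408 bp before the start of its first peak, at 7240408, to 35444 bp after the end of its last, at 7334556. The rule gave 8 peaks, 5 at dpp and 3 at the Wnt cluster, of 641 on 2L and 4389 in the whole list. Third-instar larvae of the strain Abd-B-GFP, genotype w; PBac{y[+]-attP-3B}VK00037, were used for ChIP-seq, in which DNA bound by a protein is recovered with an antibody and sequenced. This strain carries Abd-B as a genomic transgene whose stop codon is replaced by GFP. The labels do not say whether the untagged Abd-B gene was also present. There were 2 libraries of chromatin precipitated with a polyclonal antibody against GFP and 2 libraries of input DNA, all from the same strain and stage. The sex of the larvae is given as unknown, and no untagged or Abd-B mutant larvae were analysed here. The protocol text names a different stock, y; bw cn sp, from the strain given for each sample.

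The deposited result is a single peak list with 1 score per peak, which keeps no library apart. No value below therefore has a replicate error, and the depth of the libraries is unknown. The labels' protocols describe collection of wandering larvae, with no dissection named. A peak then averages over all cells of the larva, and binding in few cells cannot be told apart from weak binding in many. The list has no gene names, and the gene table at hand is on another release of the genome. The names of the windows thus come from the rule by which they were set, and the position of a peak relative to a promoter, exon or intron was not analysed here.

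Abd-B is the Hox protein of the posterior abdomen. It is a homeodomain transcription factor that sets the identity of the posterior abdominal segments and of the genital disc, the imaginal disc that forms the genitalia. dpp encodes Decapentaplegic, a secreted ligand of the bone morphogenetic protein family, and wg encodes Wingless, the founding Wnt ligand of the fly. Both act as morphogens in imaginal discs, where they spread from narrow stripes of producing cells, and both are known targets of Hox proteins in the midgut of the embryo. Much of the disc expression of dpp is driven by enhancers that lie 3′ of its coding sequence. Wnt4, Wnt6 and Wnt10 encode further Wnt ligands. In the release 6 order of protein-coding genes on 2L, dpp stands between CG44139 and Slh. In the same order Wnt4 follows CG13786, wg is followed by Wnt6, Wnt6 by Wnt10 and Wnt10 by ninaC, with CG31909 placed between Wnt4 and wg.

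The dpp window held a close pair of peaks near its left end, of which the second was weak, a pair of wider and stronger peaks near its middle and a single weak peak near its right end. Its 5 peaks amount to 7.14 per 100 kb (exact Poisson 95% interval 2.32 to 16.7, counting error only). The Wnt cluster held 3 peaks that stood far apart, or 2.14 per 100 kb (0.442 to 6.26). The density at dpp was 3.33 times that at the Wnt cluster, but the exact 95% interval of this ratio, 0.649 to 21.5, includes equal densities. These intervals rest on 8 peaks in all. They take peaks as independent of each other, and grouped peaks make them too narrow. The ratio was 1.60 with both windows narrowed by 10 kb at each end, where dpp kept only its middle pair. Among peaks at or above the median score of the whole list, the density was 2.86 per 100 kb at dpp and 0.714 at the Wnt cluster.

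The leftmost dpp peak lay at 2427971 to 2428310, spanned 340 bp and had a score of 13.60. Only 88 bp separated it from the next peak, at 2428399 to 2428599, which was 201 bp wide with a score of 6.90. Scores are used as the authors deposited them, and the file does not say how they are defined. To give them a scale, the score of the first of these peaks was above 42.4% of the scores on 2L, and that of the second above 0.468%. The second was thus among the weakest peaks of the arm. Its width of 201 bp is the smallest in the whole list, shared by 18 of the 641 peaks on 2L (2.81%) and by 2 of the 8 peaks described here. With peaks less than 1 kb apart joined, the pair would count as 1 region and the dpp window as 4.

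The middle pair carried most of the peak length at dpp. Its first peak lay at 2450865 to 2452027, spanned 1163 bp and scored 24.88. Its second lay at 2454495 to 2455232, spanned 738 bp and scored 28.21, the highest at this locus. Their midpoints were 3417.5 bp apart, and together they made up 68.4% of the peak length in the window. The wider of the pair was wider than 94.4% of the peaks on 2L, whereas its score was above only 70.4% of them.

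The right end of the window held 1 peak, at 2488381 to 2488719, with a width of 339 bp and a score of 8.65. It was nearly as wide as the leftmost peak but weaker, with a score above 6.55% of those on 2L. It lay 1281 bp inside the window, and the next peak on the arm followed at 2492587 to 2492986 with a score of 13.53, 2587 bp outside. The gap between these 2 peaks was 3867 bp, so the window edge divides a group of close peaks. On the other side, the nearest outside peak lay at 2375897 to 2376570, 43430 bp before the window, and had a score of 103.22. That score was higher than any at dpp and above 98.1% of the scores on 2L.

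At the Wnt cluster, the peak at 7306787 to 7307211 stood out by its score of 39.58, the highest of the 8 peaks. It was 425 bp wide and its score was above 83.8% of the scores on 2L. The other peaks of the cluster were weaker. The one at 7240408 to 7240608 was 201 bp wide with a score of 10.92, and the one at 7334006 to 7334556 was 551 bp wide with a score of 14.57. Their scores were above 23.6% and 46.5% of those on 2L. The widest peak of the cluster was therefore not its strongest. The nearest peak before the window, at 7219690 to 7220402, had a score of 50.30 and lay 9598 bp from the left edge. The nearest peak after the window, at 7418338 to 7418670, had a score of 11.34 and lay 48338 bp beyond the right edge.

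**Figure D1:**
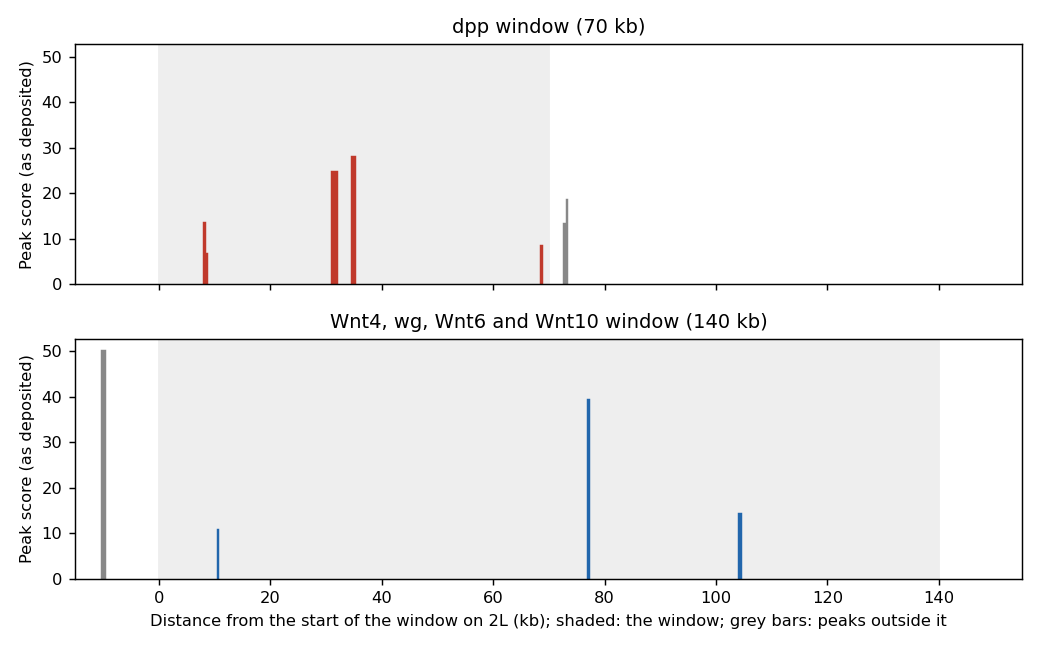
Peaks at the dpp window (above) and the Wnt cluster window (below), drawn to scale against the distance from the start of each window in kb, with the deposited score as bar height. The 5 dpp peaks reach scores from 6.90 to 28.21 and include pairs at the left end and in the middle, and the 3 peaks of the Wnt cluster reach 10.92 to 39.58 and stand apart.

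In bins of 10 kb, the dpp peaks fell into 3 of 7 bins, of which 2 held 2 peaks each. The Wnt cluster peaks fell into 3 of 14 bins with 1 peak each, and 11 bins were empty. Peaks covered 3.97% of the dpp window and 0.841% of the Wnt cluster window, a ratio of 4.73. Over the span of 2L from its first to its last peak, 1.46% was covered. The ratio of cover between the loci was larger than the density ratio of 3.33. The summed width was 2781 bp at dpp, of which 1 peak gave 1163 bp, and 1177 bp at the Wnt cluster.

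Widths and scores of the peaks overlapped between the loci. Widths ran from 201 to 1163 bp at dpp, with a median of 340 bp, and from 201 to 551 bp at the Wnt cluster, with a median of 425 bp. On the rest of 2L the median width was 400 bp. Scores ran from 6.90 to 28.21 at dpp with a median of 13.60, and from 10.92 to 39.58 at the Wnt cluster with a median of 14.57, beside a median of 15.40 for the 633 other peaks of 2L. All 8 scores lay inside the range of these others, 6.43 to 233.41. Whether a median lay above or below that of the rest of 2L depended on the processing. With peaks less than 1 kb apart merged, it was 19.24 at dpp, against 16.25 on the rest of 2L. With the windows narrowed by 10 kb at each end, it was 26.55 at dpp, against 15.37. With the windows widened by as much, it was 27.08 at the Wnt cluster, against 15.395. No direction is therefore given for either locus. Widths and scores were not tested between the loci, because peaks of a single list are not replicates.

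Counted against the whole list, scores at or above its median of 15.46 were held by 2 of 5 dpp peaks and 1 of 3 Wnt cluster peaks, where 49.8% of the peaks on 2L did so. Its upper quartile of 28.21 was reached by 1 dpp peak, which equalled it, and by 1 Wnt cluster peak, against 25.9% on 2L. Its lower quartile of 11.06 was not exceeded by 2 dpp peaks and 1 Wnt cluster peak, against 24.6% on 2L. With 5 and 3 peaks, 1 peak more or less moves these shares across the background of the arm, and no excess or deficit can be read from them at either locus.

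Wider peaks tend to have higher scores on this arm, so each peak was also set beside the other 2L peaks within 10% of its width, a comparison chosen after the values had been seen. The strongest Wnt cluster peak, with its score of 39.58, exceeded 66 of 69 peaks of like width, whose median score was 15.71, and was 2.52 times that median. The widest dpp peak lay at the other end. Its score of 24.88 exceeded 1 of 24 peaks of like width, whose median was 55.65, and was 0.447 times that median. The dpp peak beside it, with a score of 28.21, was close to the middle, above 27 of 56 peaks with a median of 29.50.

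The remaining peaks were spread over this range. The leftmost dpp peak exceeded 70.5% of its 95 matches, and the 201 bp peak next to it exceeded 1 of 52. The rightmost dpp peak exceeded 10 of 93. At the Wnt cluster, the 201 bp peak exceeded 67.3% of its 52 matches and the 551 bp peak 9 of 63. The lowest of these shares at dpp were 1.92 to 10.8%, for 3 peaks, and the lowest at the Wnt cluster was 14.3%. No limit for a low score was set beforehand, and the same shares were not computed for the other peaks of 2L. No excess of low scores for their width can therefore be read at either locus. This is a description of 8 peaks, with no test. Both 201 bp peaks could be matched only with peaks as wide or wider, since the list holds none narrower. The 18 peaks of 201 bp on 2L, with these 2 included, had a median score of 10.29.

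**Figure D2:**
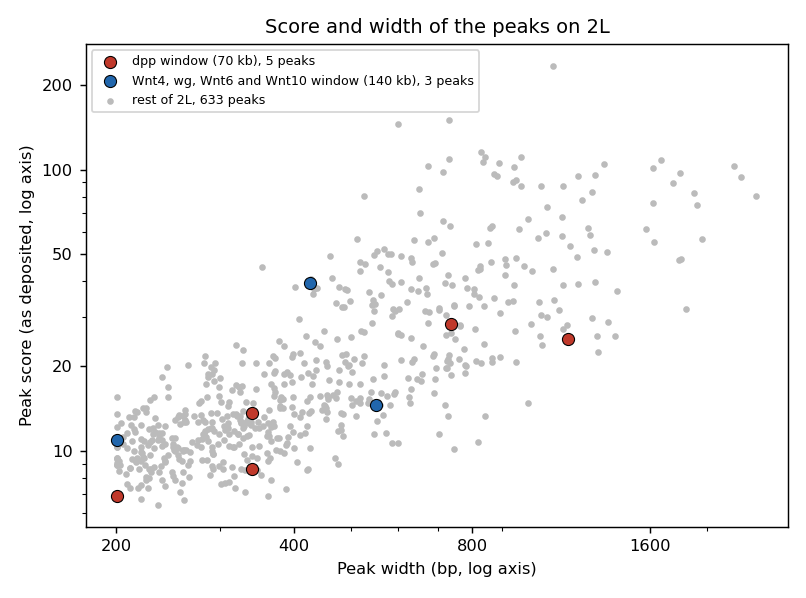
Score against width of each peak on 2L, both on log axes, with the 5 dpp peaks in red, the 3 Wnt cluster peaks in blue and the other 633 peaks in grey. The Wnt cluster peak with a score of 39.58 lies at the upper edge of the cloud at its width, and the dpp peak of 1163 bp lies at the lower edge.

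Within their windows, the dpp peaks were unevenly spaced and the Wnt cluster peaks widely spaced. The 4 gaps between dpp peaks were 88, 22265, 2467 and 33148 bp from left to right, with a median of 12366 bp. The 2 gaps at the Wnt cluster were 66178 and 26794 bp, with a median of 46486 bp. The median over all 640 gaps of 2L was 14088.5 bp. The shorter Wnt cluster gap was longer than 3 of the 4 dpp gaps and shorter than the fourth, so the gaps of the loci overlap. The medians are limited by window size, since 70 kb cannot hold gaps as long as 140 kb can. They also depended on the processing. The dpp median was 3167 bp with the windows widened by 10 kb at each end and 2467 bp with them narrowed, both below the 14088.5 bp of 2L. With peaks less than 1 kb apart merged it was 22265 bp, against 19805 bp on 2L. The Wnt cluster median was 26794 bp with the windows widened, and above that of 2L in each of these settings.

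The gap of 88 bp at dpp was among the smallest of the arm, with 14 of the 640 gaps shorter. The gap of 2467 bp between the middle peaks was longer than 152 of them. A neighbour under 1 kb away was found for 2 of the 5 dpp peaks and 0 of the 3 Wnt cluster peaks, against 25.4% of the peaks on 2L. The longer gap at the Wnt cluster, from 7240608 to 7306787, was exceeded by 100 of the 640 gaps. After the last peak of the cluster came an even longer one of 83781 bp, exceeded by 76 gaps, whose first 35444 bp lay inside the window. A long gap also crossed the left edge of the dpp window. It measured 51400 bp, of which the last 7971 bp lay inside the window, and was exceeded by 129 gaps. Gaps of such length were thus in the upper part of the distribution without being rare.

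**Figure D3:**
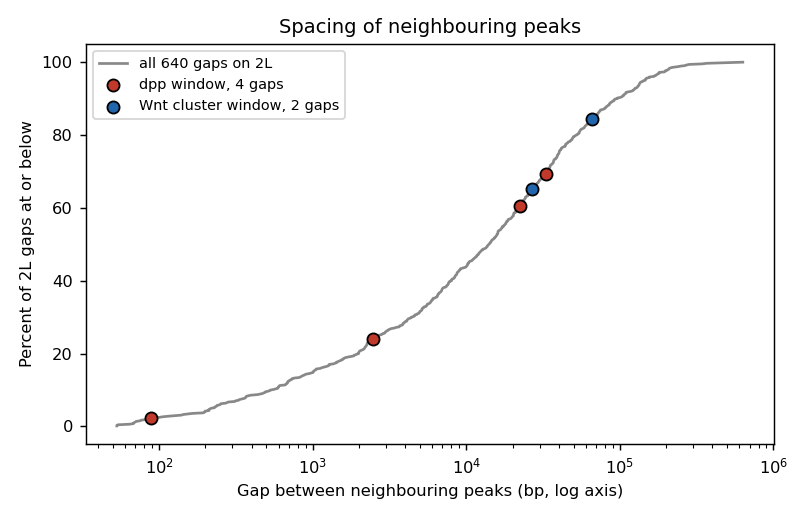
Cumulative distribution of the 640 gaps between neighbouring peaks on 2L (grey line, log axis in bp), with the 4 gaps inside the dpp window in red and the 2 inside the Wnt cluster window in blue. The dpp gaps run from 88 to 33148 bp and the Wnt cluster gaps are 26794 and 66178 bp.

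Set against windows of the same size, the dpp window was in the upper part of the arm and the Wnt cluster window near its middle. Of 326 other windows of 70 kb laid end to end along 2L, 282 (86.5%) held fewer peaks than dpp, 16 held the same number and 28 held more. Windows with 5 or more peaks thus made up 13.5% of these 326. The 326 windows held 1.94 ± 2.25 peaks (SD over windows), with a median of 1, and 103 were empty. The dpp window, with its 5 peaks, was therefore richer than most windows, and 44 others held at least as many.

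Of 162 other windows of 140 kb, 68 (42.0%) held fewer peaks than the Wnt cluster, 19 held the same number and 75 held more. Windows with 3 or more peaks made up 58.0% of them. The 162 windows held 3.91 ± 3.53 peaks (SD over windows), with a median of 3, so the Wnt cluster matched the median window. The 5 peaks at dpp stand beside 1.96 that the mean density of 2L would put on 70 kb, and the 3 at the Wnt cluster beside 3.92 on 140 kb. With both windows narrowed by 10 kb at each end, 65.4% of equal windows held fewer peaks than dpp and 49.2% fewer than the Wnt cluster.

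The peak-rich windows of the arm show what a high count looks like. The highest count among the windows of 70 kb was 13, reached at 5250001 to 5320000 with a top score of 89.27 and at 14490001 to 14560000 with a top score of 33.93. The window at 2170001 to 2240000 held 10 peaks, covered to 11.5%, with a median score of 28.09. Among the windows of 140 kb the highest count was 19, at 14420001 to 14560000. These windows were picked for their high counts, so it follows from the choice that both loci held fewer peaks.

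The top score at dpp, 28.21, was lower than the top score of 114 of the 223 windows of 70 kb that held a peak, whose median top score was 30.08. The top score at the Wnt cluster, 39.58, was lower than that of 75 of 135 windows of 140 kb, whose median was 44.94. Among the 16 windows with as many peaks as dpp, 4 had a lower top score and 12 a smaller cover. Among the 19 windows with as many peaks as the Wnt cluster, 8 had a lower top score and 5 a smaller cover. The top score of each locus was thus below that of most windows with the same number of peaks.

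**Figure D4:**
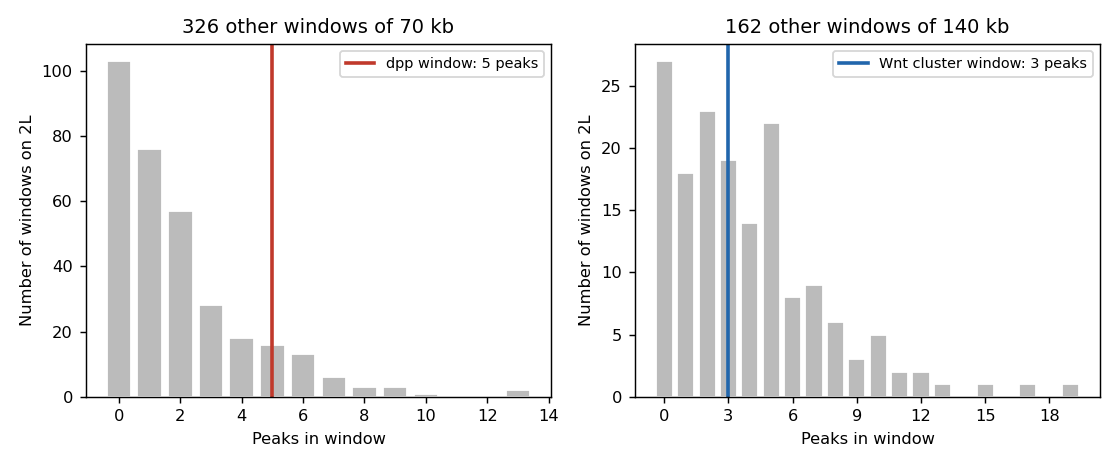
Number of peaks in the other windows of 70 kb (left, 326 windows) and 140 kb (right, 162 windows) laid end to end along 2L, as grey bars, with the dpp window (5 peaks) and the Wnt cluster window (3 peaks) as coloured lines. The dpp line stands right of 86.5% of its windows and the Wnt cluster line right of 42.0%.

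The surroundings of both loci were alike in peak number. The dpp window had 7.14 peaks per 100 kb, against 3.90 (exact Poisson 95% interval 2.77 to 5.33) from the 39 peaks in the 500 kb on each side of it. The Wnt cluster window had 2.14 per 100 kb, against 3.70 (2.61 to 5.10) from the 37 peaks in its flanks. The intervals of window and flanks overlapped at both loci. They again take peaks as independent and show counting error only, so their overlap is not a test. Peaks in the flanks were grouped too: of the 20 in the left flank of dpp, 10 lay in the window at 2170001 to 2240000. The median score was 13.60 inside the dpp window, against 18.28 in its flanks, and 14.57 inside the Wnt cluster window, against 18.11 in its flanks. These orders also turned with the processing. At dpp the median was 19.24, against 18.71 in the flanks, with peaks merged, and 26.55, against 17.30, with the window narrowed. At the Wnt cluster it was 27.08, against 18.22, with the window widened. The narrowed dpp window had 4.0 peaks per 100 kb, against 4.20 in its flanks.

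Within these stretches, the members ranked as follows. Of the 44 peaks in the dpp window and its flanks, the strongest dpp peak ranked 13 by score and the widest ranked 4 by width, while the 201 bp peak ranked last by score. Of the 40 peaks in the Wnt cluster window and its flanks, the strongest member ranked 9 by score and 18 by width. The strongest peaks of both regions thus lay outside the windows. The peaks at both loci have no library of their own to check them, and whether they lie in the regulatory DNA of these genes was not tested.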

How the data were processed

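Third-instar larvae of 1 strain gave 2 ChIP and 2 input libraries, grouped by their titles. Per the file headers, the peak list is on FlyBase release 5 and was made with MACS. Per the submitters' processing notes, the tools were BWA, MACS2 and CASAVA (1.7.0.2 and 1.7.0.3). Not given in the sources used here are the thresholds, the read filters and the way libraries were pooled. The score of each peak was used as deposited, for description and ranking only. A pooled list hides disagreement between libraries, and a score can rise with depth.

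The windows, members, lists and measures were chosen with earlier results of these data known. A peak belonged to a window by its midpoint. Named are the 5 highest scores, the widest peak, the peaks beside the smallest and largest gaps and the first peak outside each edge, as well as equal windows with at least as many peaks (at most 5 per locus, from which those with the highest counts are given). Equal windows were laid end to end from the start of 2L, without those that touch the locus. Gaps run from the end of a peak to the start of the next. Intervals are exact (Poisson, or binomial for the ratio) at 95%. Since peaks are not replicates, no p-value was computed, and the intervals show counting error only. The calculations were tested on simulated data and used Python 3.11.15, NumPy 2.4.6, pandas 2.3.3, SciPy 1.17.1 and Matplotlib 3.10.9. Gene order came from the RefSeq table on release 6, by name only. Planned counts over pathway genes and motif searches need a genome or annotation of release 5 and were not run. Alternatives were a stricter list, merged peaks, overlap in place of midpoint, moved edges and other tilings.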

Additional observations from a re-analysis of the deposited data

How the results depend on the processing

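The density was higher at dpp than at the Wnt cluster under each alternative run, with a ratio from 1.60 to 4.00. The ratio of 1.60 rests on 2 peaks at dpp against 3, and that of 4.00 on 2 against 1. All alternatives reuse the same peak list, and the interval of the main ratio, 0.649 to 21.5, includes equal densities. Assigning peaks by overlap moved no value, and tiling from another start or sliding in steps of 10 kb left the share of windows with fewer peaks at 88.6% for dpp and at 44.1% and 41.0% for the Wnt cluster. Of the results under all alternatives, 55 stayed within their limits (a factor of 1.5, or the exact interval of a share) and 21 moved. Part of this tally was fixed in advance. The overlap rule gave 13 of the 55, but no peak crosses an edge of either window, so it could not change the members. The cut by score gave 9 of the 21, and such a cut cannot raise the density or lower the median score. A stricter list, cut at the whole-list median score, left at dpp 2.86 peaks per 100 kb, a median width of 950.5 bp, a median score of 26.55, a median gap of 2467 bp and 77.6% of windows with fewer peaks. At the Wnt cluster it left 0.714 peaks per 100 kb, a score of 39.58, 0.304% of the window covered and 25.9% of windows with fewer peaks, and no gap could be given with 1 peak. Merging peaks less than 1 kb apart gave dpp a median width of 683.5 bp, a median score of 19.24 and a median gap of 22265 bp. Narrowing the windows by 10 kb at each end lost the outer dpp peaks, which gave 4.0 per 100 kb, a width of 950.5 bp, a score of 26.55, a gap of 2467 bp, 65.4% of windows with fewer peaks and a density ratio of 1.60. Widening them by as much gave dpp a median gap of 3167 bp and 92.1% of windows with fewer peaks, and the Wnt cluster a median score of 27.08 and a median gap of 26794 bp. With a width tolerance of 25%, added after seeing the data, all 8 comparisons at matched width stayed within their intervals. No paired analysis was possible because libraries are not separate in the deposited list, and replicates could not be left out either. Depth limits the weakest peaks first, such as the dpp peak with a score of 6.90, but it is unknown.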
